A study of Homo sapiens with 36 samples.

Results

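The human colon carcinoma line HCT116 gave counts for loci known only by an assembly number (XLOC_ and digits), without a gene symbol, class or position in the files. The 436 loci described here are those with at least as high a level on chromatin as in the cytoplasm of untreated control cells, out of 1433 assembled loci. The level was the mean of 3 libraries in CPM, a locus' count scaled by the total of all counts of its library. The other 997 assembled loci had the higher level in the cytoplasm. The loci were thus chosen by measured values, their counts in chromatin and cytoplasm total RNA of untreated control cells, so their levels there are given as a description only. Whether the loci were assembled from reads of these same libraries is not given in the sources used here. If they were, the direction in which they move is not independent evidence.

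Both cell lines expressed TIR1, the plant F-box protein that recruits a ubiquitin ligase to proteins bearing an auxin-inducible degron (AID). The control line had no further change named in the labels, and in the DIS3-AID line, which is 1 CRISPR clone, DIS3 bears the degron. Each line was left untreated or given 500 uM auxin for 1 h. RNA was taken from the cytoplasm, as ribosome-depleted total RNA and as polyA-selected RNA, and from chromatin as ribosome-depleted total RNA. Each of the 3 data sets had 4 groups of 3 libraries, 36 libraries in all. Cytoplasm replicates are described as technical in the design text, and for chromatin nothing says that they came from separate cultures. The p-values here therefore reflect how far libraries of one group lie apart, which may be technical.

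DIS3 is the processive 3′ to 5′ exonuclease, and also an endonuclease, of the nuclear RNA exosome. The exosome trims precursors of stable RNAs and degrades short-lived transcripts such as promoter upstream transcripts and enhancer RNAs, reaching them through adaptors that bind the RNA and, in part, add short tails. RNA that stays with chromatin in a salt fractionation is mostly nascent or retained RNA, while the cytoplasm holds exported RNA together with what leaks from nuclei.

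Depth per library was 59.5 to 122.6 M counts for total RNA of the cytoplasm, 50.3 to 139.0 M for chromatin and 25.9 to 33.1 M for polyA RNA. DIS3 mRNA was at 46.1 to 51.4 CPM in the untreated clone's cytoplasm, below the 84.9 to 89.8 CPM of control libraries. Auxin acts on the protein, so the RNA does not check the depletion. The fractions were checked on lists of known RNAs. Of 10 lncRNAs described as nuclear, 8 were at least as high on chromatin as in the cytoplasm of untreated control cells. Among them were NEAT1, the scaffold of paraspeckles, with a ratio of 19.7, and MALAT1, a nuclear speckle RNA, with 3.37. MEG3 and SNHG14, also among the 8, were at 0.0740 CPM or less in both fractions, too low for a check. TUG1 (0.518) and OIP5-AS1 (0.304) were lower on chromatin. None of 10 abundant cytoplasmic mRNAs was at least as high on chromatin, with a median ratio of 0.0391. Of 7 colon epithelial markers in untreated control cytoplasm, KRT8, the highest, was at 1470 CPM and VIL1, the lowest, at 0.0264 CPM. Of 4 fibroblast markers there, COL1A1 was at 11.01 CPM and the others at 0.224 CPM or less, and 4 blood markers were at 0 to 0.0568 CPM. In control cytoplasm with auxin COL1A2 had a mean of 0.419 CPM and COL3A1 one of 0.297 CPM. Of 3 endothelium markers VWF was the highest, at 0.710 CPM in untreated control cytoplasm and 2.49 CPM in that of the treated clone.

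In untreated control cells the 436 loci were mostly scarce. Their median level was 0.438 CPM in the cytoplasm and 1.02 CPM on chromatin, where 221 of them reached 1 CPM and 52 reached 10 CPM. Their median ratio of chromatin over cytoplasm was 2.13, and 34 loci were at least 10 times as high on chromatin. At the edge of the rule, XLOC_009696 and XLOC_013159 had ratios of 1.001 and 1.0012, and 2 assembled loci just outside it had 0.9967 and 0.9953. For XLOC_013159 the means were 2.28 ± 0.276 CPM on chromatin and 2.28 ± 0.153 CPM in the cytoplasm (SD, n = 3), a difference within the spread, so the rule splits neighbours that cannot be told apart. A stricter view is that in 335 of the 436 loci all chromatin libraries lay above all cytoplasm libraries.

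A few loci held most of the chromatin signal. The 10 most abundant took 67.8% of the counts of all 436 on untreated control chromatin, and the first of them, XLOC_002963, 21.6%. XLOC_002963 was at 1389, 1352 and 1357 CPM on chromatin of untreated control cells and at 41.0, 44.1 and 43.7 CPM in their cytoplasm. The next, XLOC_013449, was at 711, 691 and 738 CPM on chromatin and at 18.5, 18.7 and 20.3 CPM in the cytoplasm. These levels are of the order of NEAT1, at a mean of 686 CPM on the same chromatin, though CPM takes no account of length.

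With auxin in the DIS3-AID clone, these loci had a larger share of the cytoplasm's counts. They took 0.0696% ± 0.0017 of cytoplasm total RNA counts in the untreated clone and 0.283% ± 0.00813 in the treated one (SD, n = 3), a ratio of 4.06, with no overlap between the libraries (0.0683 to 0.0715% against 0.277 to 0.292%). On chromatin the share was 0.598% ± 0.00349 without and 0.775% ± 0.0239 with auxin, a ratio of 1.30. In polyA RNA it was 0.0454% ± 0.000159 and 0.0904% ± 0.00356, a ratio of 1.99. Without the 10 most abundant loci the ratios were 4.83, 1.23 and 1.99. In control cells the same ratios were 1.04 in the cytoplasm, 1.02 on chromatin and 1.03 in polyA RNA. These are shares of counts in bulk RNA, in which more cells with a transcript and more transcript per cell cannot be told apart.

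**Figure D1:**
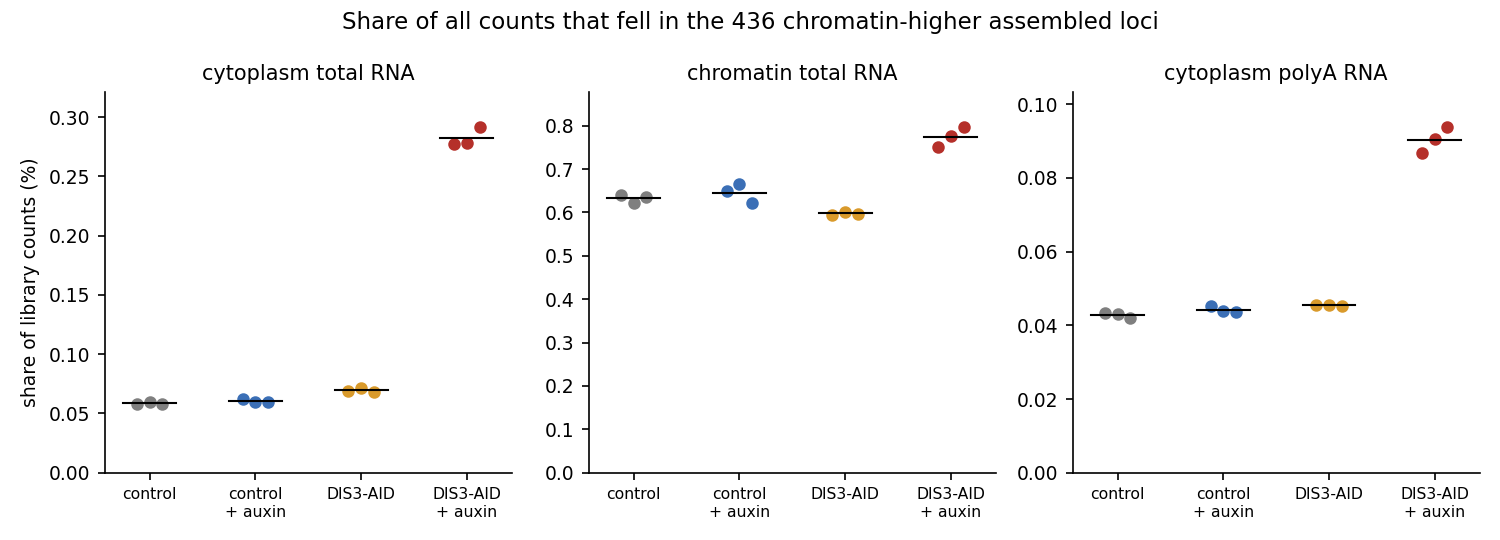
Share of all counts of a library, in percent, that fell in the 436 loci, for each of 36 libraries (points) with the mean of each group (line, n = 3), with a panel for each data set; the vertical scales differ. In each data set the DIS3-AID libraries with auxin lie above all others, at 0.283%, 0.775% and 0.0904% on average.

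In cytoplasm total RNA, 390 of the 436 loci rose with auxin in DIS3-AID cells and 1 fell (edgeR quasi-likelihood test, adjusted p below 0.05), where 21.1% of all 23027 features tested rose and 13.2% fell. None of these libraries had a part in choosing the loci. All 436 were tested. The median change was 2.81 on the log2 scale, a 7.01-fold rise, with quartiles of 1.85 and 3.37, against a median of -0.05 over all features. Of the loci that rose, 361 changed at least 2-fold, 315 at least 4-fold and 187 at least 8-fold. The filter on low counts was passed by 417 loci without the treated clone's libraries, and 371 of these rose (median 2.76, chosen after the data were seen); the other 19 were tested only because they are high there. The number of loci at 1 CPM or more went from 135 in the untreated clone to 401.

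XLOC_013740 rose most. Its cytoplasmic level was 0.0341, 0.0955 and 0.0396 CPM in the untreated clone (14 counts in the 3 libraries) and 2.63, 2.27 and 2.36 CPM with auxin (568 counts). The groups are far apart, and the 6 control libraries, at 0.0739 to 0.136 CPM, lay with the untreated clone. The fitted change was 5.29 ± 0.24 on the log2 scale (SE). XLOC_013581, the next, went from 0.0568, 0.0358 and 0.0396 CPM to 1.71, 1.87 and 1.502 CPM, a fitted change of 5.11 ± 0.34 (SE). Both are among the 19 loci above, so no p is given, and their untreated values rest on few counts.

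The 1 locus that fell in the cytoplasm, XLOC_009752, was at 0.591, 0.454 and 0.435 CPM in the untreated clone and at 0.300, 0.252 and 0.395 CPM with auxin. Its groups did not overlap, and the change was -0.74 ± 0.22 (SE, edgeR adjusted p = 0.0149). The call was lost without the first untreated library (-0.57, adjusted p = 0.105) and without the first (-0.69, adjusted p = 0.0543) or second treated library (-0.61, adjusted p = 0.0765).

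In control cytoplasm no locus was called with auxin by edgeR, in a comparison that shares the untreated control libraries with the rule. Neither direction had a call, with a median of 0.04, where 0.0217% of all features rose and 0.0261% fell. At an unadjusted p below 0.05 there were 55 loci, and DESeq2 called 2 higher and 1 lower. With the replicate number as a block, which the pairing check allows here, 0 rose and 1 fell. The auxin effect was larger in DIS3-AID than in control cells for 373 of the 436 loci, and smaller for none (test of the difference itself, edgeR), against 16.1% and 3.31% of all features; this test too uses the libraries that chose the loci. Of the 390 loci that rose, 372 passed that test.

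The clone differed from the control line before auxin was added. In cytoplasm total RNA of untreated cells, 125 of the 436 loci were higher in DIS3-AID than in control cells and 6 were lower, with a median of 0.34, against 9.67% and 12.4% of all features. Of the 125, 32 differed at least 2-fold. The untreated control libraries of this comparison also chose the loci. The clone's lower DIS3 mRNA (log2 difference -0.85 ± 0.05, SE, edgeR adjusted p = 2.38e-09) moves with this difference, and its part in it was not tested.

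On chromatin the rise was smaller. Of 428 loci tested there, 256 rose with auxin in DIS3-AID cells and 1 fell (edgeR), where 11% of 24966 features rose and 9.54% fell. Without the treated clone's libraries 417 loci passed the filter, and 249 of these rose. The median change was 0.61, a 1.52-fold rise, with quartiles of 0.26 and 1.01, and 108 of the 256 changed at least 2-fold, 7 at least 4-fold and none 8-fold. The 8 loci that the filter left out had a median of 0.069 CPM on untreated control chromatin. The next 3 comparisons, unlike this one, use the untreated control libraries on chromatin, which chose the loci for a high level there. On chromatin of untreated cells 87 loci were higher in the clone than in the control line and 43 lower, with a median of 0.09, against 15.2% and 17.4% of all features. In control cells 50 loci rose and 25 fell with auxin on chromatin, with a median of 0.07, against 9.02% and 7.97% of all features, close to the background; leaving out 1 library lowered the count of rising loci to as few as 25 (without control library 3), 26 (without treated library 1), 31 (without control library 2) or 33 (without treated library 2). The response was larger in DIS3-AID than in control cells for 172 loci and smaller for 9, against 8.54% and 9.2% of all features, and 158 of the 256 were among the 172.

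XLOC_011098 rose most on chromatin, from 0.135, 0.242 and 0.136 CPM to 0.844, 0.968 and 0.931 CPM. The change was 2.46 ± 0.22 (SE, edgeR adjusted p = 4.6e-07), and the treated clone lay above all control libraries, which were at 0.281 to 0.438 CPM. Its cytoplasmic level went further, from 0.182, 0.263 and 0.106 CPM to 5.98, 6.06 and 6.33 CPM, so that in the treated clone the ratio of chromatin over cytoplasm was 0.149. XLOC_002374 went from 0.157, 0.214 and 0.305 CPM to 1.04, 1.17 and 0.762 CPM on chromatin, a change of 2.23 ± 0.24 (SE, adjusted p = 3.57e-06), and from a mean of 0.161 to 3.57 CPM in the cytoplasm.

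The 1 locus that fell on chromatin was an abundant one. XLOC_010200 was at 113, 117 and 116 CPM on chromatin of untreated control cells and at 39.3, 42.5 and 46.5 CPM in the untreated clone. The fitted difference was -1.49 ± 0.09 (SE). The untreated control libraries in it chose the loci for a high level on chromatin, so no p is given. With auxin the clone was at 29.03, 33.2 and 38.6 CPM, a change of -0.29 ± 0.09 (SE, edgeR adjusted p = 0.0229). This fall is small and its call was lost without the third untreated library (-0.24, adjusted p = 0.108) or the first (-0.19, adjusted p = 0.113) or second treated library (-0.29, adjusted p = 0.0652). The change minus that in control cells was fitted as -0.0047 ± 0.12 (SE), which uses the same untreated control libraries and is given without a p. In the cytoplasm the same locus rose, from 3.93, 4.70 and 3.77 CPM to 9.92, 10.2 and 9.75 CPM, a change of 1.17 ± 0.08 (SE, adjusted p = 6.5e-10). It thus had more RNA in the cytoplasm and no more on chromatin, at a level where counts are high (9232 and 6162 counts on chromatin, 1026 and 2306 in the cytoplasm).

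**Figure D2:**
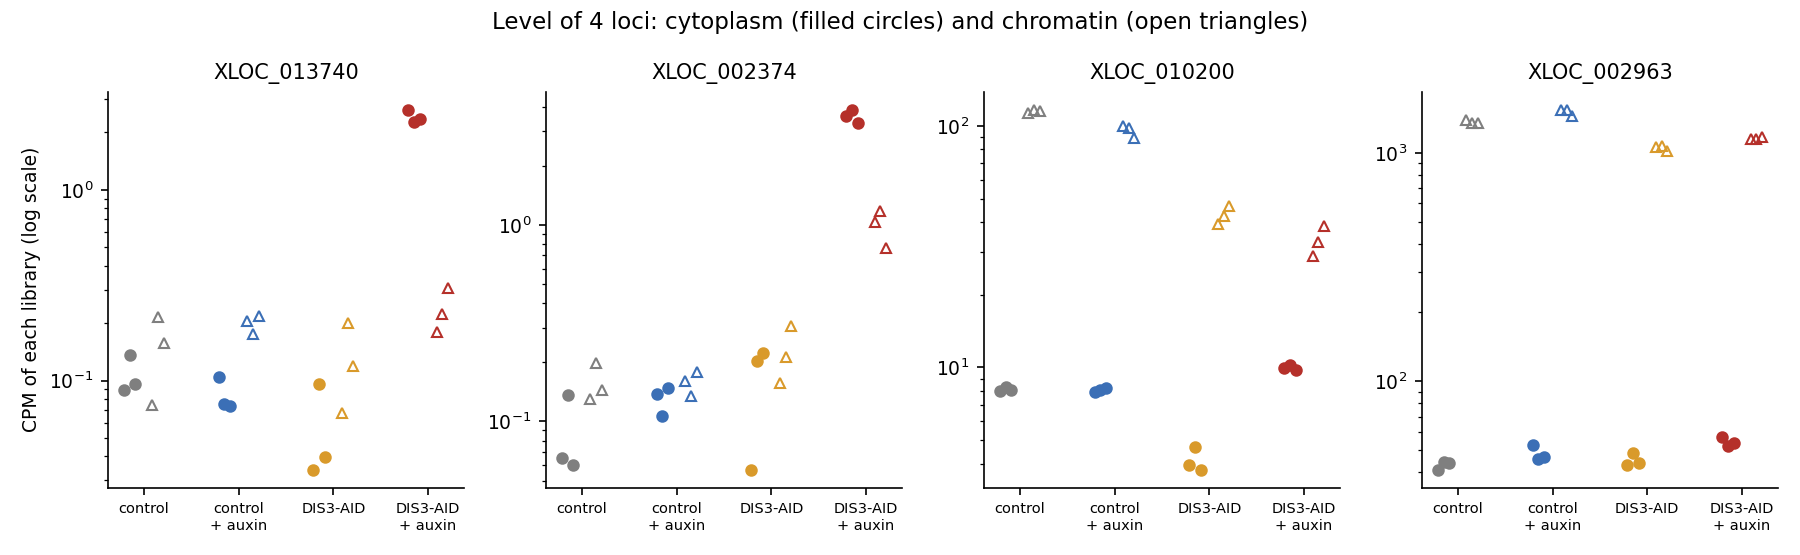
CPM of XLOC_013740, XLOC_002374, XLOC_010200 and XLOC_002963 in each library on a log scale, for cytoplasm total RNA (filled circles) and chromatin total RNA (open triangles) in the 4 groups (n = 3 libraries each). With auxin in DIS3-AID cells the circles of XLOC_013740 and XLOC_002374 pass above the triangles, those of XLOC_010200 rise while its triangles do not, and XLOC_002963 stays far higher on chromatin, at 1151 to 1168 CPM against 51.9 to 57.2 CPM.

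The sum of the mean CPM gained by the 436 loci on chromatin was 1770, and 819 of it, or 46.3%, came from XLOC_009001, which was singled out after its values were seen. It was at 464, 425 and 436 CPM on chromatin in the untreated clone and at 1167, 1277 and 1337 CPM with auxin. Control libraries, at 359 to 484 CPM with and without auxin, lay with the untreated clone. The change was 1.56 ± 0.08 (SE, edgeR adjusted p = 1.2e-09), and in the cytoplasm, where it went from a mean of 16.0 to 39.3 CPM, 1.20 ± 0.07 (SE, adjusted p = 1.55e-10). Without it the gain on chromatin summed to 951 CPM. In the cytoplasm the gain of 2131 CPM was spread over the loci: 427 of 436 had a higher mean, and the largest gain of 1 locus, 81.6 CPM, was 3.83% of the sum.

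The fraction in which these loci stood higher changed. By mean CPM, 403 of the 436 (92.4%) were at least as high on chromatin as in the cytoplasm in control cells with auxin, 362 (83.0%) in the untreated clone and 123 (28.2%) in the clone with auxin. The median ratio of chromatin over cytoplasm was 2.19, 1.94 and 0.419 in these groups. With counts scaled by library size alone in an edgeR fit, the median log2 ratio of all features also fell. It was 0.822 in the untreated clone and 0.404 in the treated one, while that of the 436 loci went from 0.938 to -1.264. How many of all features lay on either side was not counted. With auxin in the clone, 245 loci were at least 2 times as high in the cytoplasm, against 13 in the untreated clone, and in 296 all cytoplasm libraries lay above all chromatin libraries, against 21. Between the untreated and the treated clone 239 loci went from the chromatin side to the cytoplasm side and 0 went the other way. The 123 still on the chromatin side in the treated clone were on it in all 4 groups. A drop from the 436 of untreated control cells is built into the rule, since those libraries chose the loci; the groups named here did not.

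**Figure D3:**
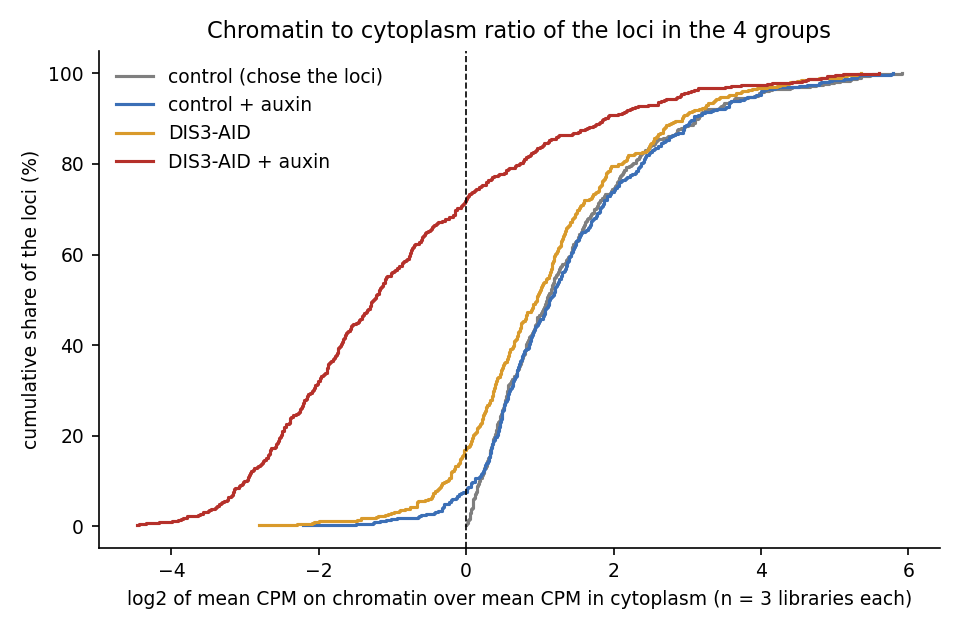
Cumulative share of the 436 loci, in percent, against the log2 of the ratio of mean CPM on chromatin over mean CPM in the cytoplasm (n = 3 libraries in each), for the 4 groups; the curve of untreated control cells starts at 0 because those libraries chose the loci. The curve of DIS3-AID cells with auxin leaves 28.2% of the loci at or to the right of the dashed line of equal levels, and the other curves leave 83.0% or more.

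Tested locus by locus with both fractions in 1 edgeR fit, the count depends on how fractions are put on 1 scale. With TMM scaling, which sets most features of both fractions as equal, 220 loci were higher and 53 lower on chromatin in control cells with auxin, 193 and 99 in the untreated clone, and 91 and 320 in the treated clone; 46.1% and 43.2%, 46.2% and 43.2%, and 45.2% and 44.9% of all features were called higher and lower. With library sizes alone, the scale of the rule, the counts were 329 and 6, 287 and 24, and 108 and 297. That choice moves the median of all features by 0.667, 0.685 and 0.355 on the log2 scale in the 3 groups, so the split in the first pair of groups is known only within these bounds, while in the treated clone loci lower on chromatin were the majority on both scales.

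The response to auxin in DIS3-AID cells was lower on chromatin than in the cytoplasm for 344 of the 436 loci and higher for 14 (edgeR, test of the difference between the responses), with a median difference of -1.83, where 11% of all features were lower and 22.1% higher. All 344 were among the loci that rose in the cytoplasm. With library sizes alone 372 were lower and 4 higher, with a median difference of -2.16, while the median of all features moved from 0.16 to -0.17. Of the 344, 316 differed at least 2-fold.

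**Figure D4:**
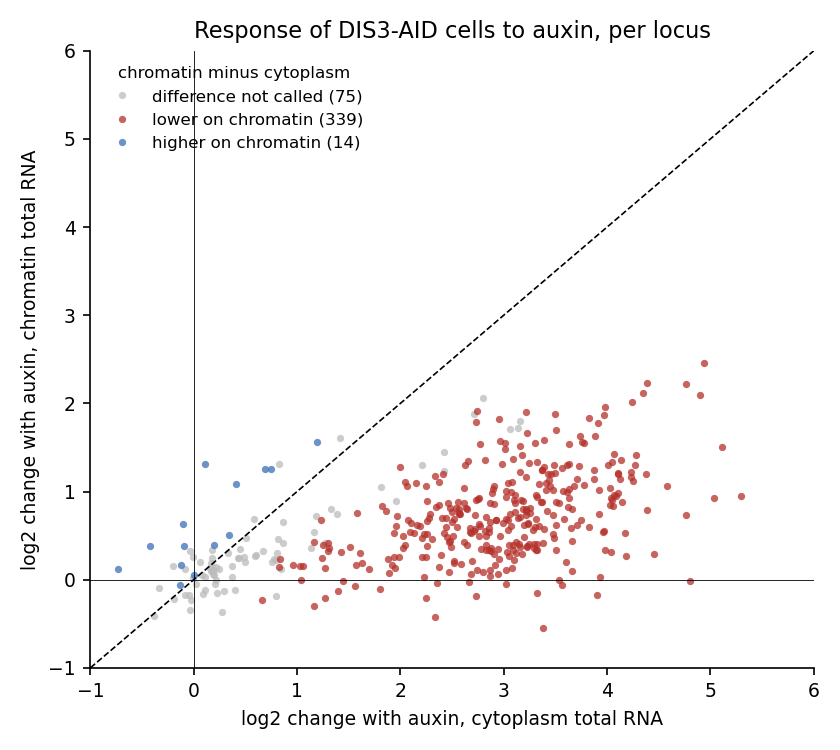
Log2 change with auxin in DIS3-AID cells on chromatin (vertical) against that in cytoplasm total RNA (horizontal) for the 428 loci tested in both, coloured by the test of the difference between the responses. Below the dashed line of equal change lie 401 loci, of which 339 were called lower on chromatin (red); 14 were called higher (blue).

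At one end of this difference, XLOC_002282 was at 0.0227, 0.0119 and 0.0132 CPM in the untreated clone's cytoplasm and at 0.559, 0.606 and 0.409 CPM with auxin, 4 against 121 counts. On chromatin it was at 0.123, 0.0855 and 0.0678 CPM without and 0.111, 0.0745 and 0.0846 CPM with auxin, ranges that overlap. Its fitted difference between the responses was -4.65 ± 0.73 (SE), and that of XLOC_013740, which rose most in the cytoplasm, was -4.17 ± 0.57 (SE). Both loci passed the filter in the cytoplasm only through the treated clone's libraries, so no p is given. At the other end, XLOC_013536 rose on chromatin alone by these tests, from 0.886, 0.912 and 0.796 CPM to 1.92, 2.23 and 2.15 CPM, with cytoplasmic levels of 0.659, 0.633 and 0.475 CPM and 0.652, 0.841 and 0.580 CPM that overlapped. Its difference was 1.40 ± 0.24 (SE, edgeR adjusted p = 2.5e-05). For XLOC_009752, which fell in the cytoplasm, the difference was 1.03 ± 0.32 (SE, adjusted p = 0.011), and the call was lost with library sizes alone (0.71, adjusted p = 0.115) and without the first treated chromatin library (0.83, adjusted p = 0.0628).

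The 2 most abundant loci stayed far higher on chromatin than in the cytoplasm. XLOC_002963 was at 1058, 1068 and 1020 CPM on chromatin of the untreated clone and at 1151, 1151 and 1168 CPM with auxin, a change of 0.19 ± 0.05 (SE, edgeR adjusted p = 0.00627). In the cytoplasm it went from 42.8, 48.5 and 43.7 CPM to 57.2, 51.9 and 53.7 CPM, a change of 0.17 ± 0.06 (SE, adjusted p = 0.0494). Its ratio of chromatin over cytoplasm was 23.3 without and 21.3 with auxin. The response on chromatin minus that of control cells was fitted as 0.07 ± 0.07 (SE). XLOC_013449 had ratios of 24.9 and 23.6. Its changes in the cytoplasm (0.17 ± 0.08, SE, adjusted p = 0.105) and on chromatin (0.25 ± 0.09, SE, adjusted p = 0.0539) did not pass the test. Its response on chromatin minus that of control cells was fitted as 0.41 ± 0.12 (SE). These differences from control cells use the untreated control chromatin libraries that picked both loci as the most abundant, so no p is given. In polyA RNA XLOC_013449 rose (0.38 ± 0.11, SE, edgeR adjusted p = 0.0168). High level and a stable ratio did not always go together: XLOC_010200 had a ratio of 10.3 without and 3.37 with auxin, and in the bin of the 109 loci highest on control chromatin 57 had a lower response on chromatin than in the cytoplasm.

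These examples follow a gradient with level. The loci were split into 4 equal bins of 109 by their level on untreated control chromatin. The median log2 change with auxin in the clone's cytoplasm was 3.39 in the lowest bin, then 2.95, 2.74 and 1.20 in the highest. On chromatin the medians were 1.01, 0.71, 0.61 and 0.25, where the lowest bin had 101 loci tested. The number still at least as high on chromatin as in the cytoplasm in the treated clone went up with level, from 1 to 12, 25 and 85 of 109. By bins of the chromatin to cytoplasm ratio that chose the loci the cytoplasmic medians were 3.14, 3.02, 2.88 and 1.69. The 46 loci not called higher in the cytoplasm had a median of 4.51 CPM on untreated control chromatin, against 0.88 CPM for the 390. The libraries that gave these levels took no part in the change within the clone. The bins do hold loci that were tested only because they are high in the treated clone, 19 in the cytoplasm and 11 on chromatin. The medians were not recomputed without them. Whether the gradient comes from level, from fraction or from the kind of transcript was not tested.

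**Figure D5:**
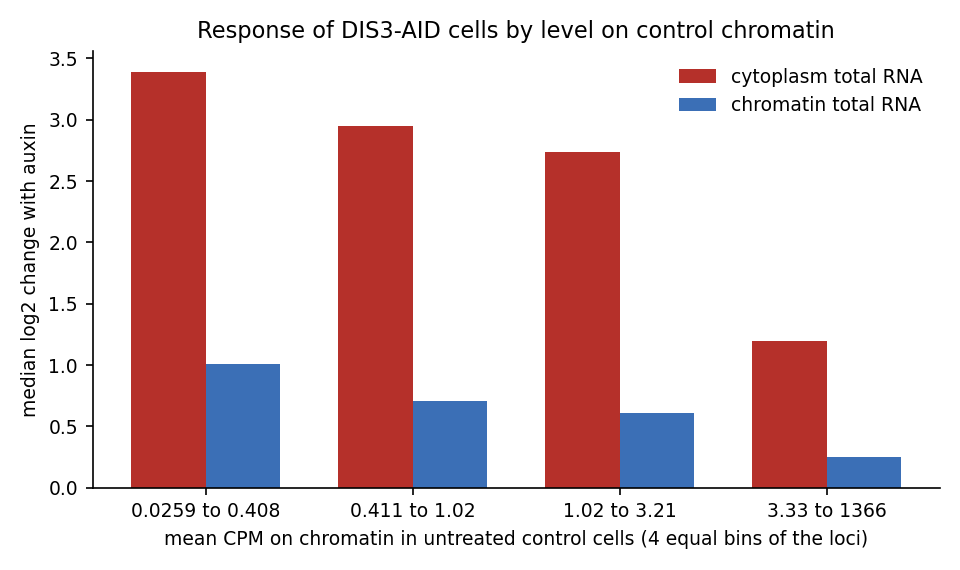
Median log2 change with auxin in DIS3-AID cells (bars, from 0) for 4 bins of 109 loci by mean CPM on chromatin of untreated control cells, in cytoplasm total RNA and chromatin total RNA. Bars fall from 3.39 to 1.20 in the cytoplasm and from 1.01 to 0.25 on chromatin.

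The median CPM of these loci was lower in polyA-selected RNA of the cytoplasm than in its total RNA. CPM in these data sets are shares of different RNA pools. Not every locus was lower, and the 46 loci not called higher in cytoplasm total RNA had control medians of 1.49 CPM in polyA and 1.05 CPM in total RNA. In polyA RNA untreated control cells had a median level of 0.141 CPM over the 436 loci, and the untreated clone one of 0.199 CPM. In the untreated clone 100 loci reached 1 CPM and 21 had no count in any of the 3 libraries. With auxin the clone had a median of 0.978 CPM, 214 loci reached 1 CPM and 1 had no count. Over all 436 loci, 416 had a higher mean with auxin.

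The edgeR test in polyA RNA could be run on 320 of the 436 loci, and 116 had too few counts. Of the 320, 230 rose with auxin in DIS3-AID cells and 0 fell, where 13.2% of 16651 features rose and 3.88% fell. With no filter on low counts 282 rose. A locus that passes the filter through its treated libraries alone had to differ, and 152 of the 320 did. Of the other 168, which pass without those libraries, 85 rose, with a median of 0.60. None of the 320 was called in control cells (median 0.08, with 25 at an unadjusted p below 0.05; DESeq2 called 0 higher and 1 lower, and the fit with the replicate block 0 and 1), where 0.012% and 0.036% of all features were. The clone differed from control cells without auxin for 21 loci that were higher and 4 that were lower, against 6.22% and 5.65% of all features. The response was larger in DIS3-AID than in control cells for 95 loci and smaller for 1, against 4.85% and 0.985%; among the 168 loci these counts were 51 and 1.

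In XLOC_008774 no polyA count was seen in the 3 untreated DIS3-AID libraries, and the treated ones were at 0.687, 0.614 and 0.563 CPM (50 counts). Against a floor of 3 counts over the untreated group this is at least 17.3-fold higher. In XLOC_003250 the untreated libraries also had no count and the treated were at 0.398, 0.384 and 1.01 CPM (48 counts), at least 16.6-fold higher. Both loci passed the filter only through the treated libraries, so these values are a description. In total RNA of the same fraction the CPM of both was higher, as a share of another RNA pool. XLOC_003250 went from 0.659, 0.979 and 0.659 CPM to 12.4, 13.3 and 12.7 CPM there. On chromatin that locus was at 0.819, 1.026 and 1.101 CPM without and 1.23, 1.30 and 1.57 CPM with auxin, a change of 0.54 ± 0.17 (SE, edgeR adjusted p = 0.0299).

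With total and polyA RNA in 1 fit, the response of DIS3-AID cells was lower in polyA than in total cytoplasmic RNA for 68 loci and higher for 15 (edgeR), with a median difference of -0.28, where 3% of all features were lower and 5.29% higher. With the replicate number as a block across data sets, 88 were lower and 22 higher, and with library sizes alone 76 and 8. The last choice moves the median of all features by -0.164.

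The 3 lists of rising loci overlapped. Of the 256 loci that rose on chromatin 247 (96.5%) also rose in cytoplasm total RNA, where they were 63.3% of the 390. Of the 230 that rose in polyA RNA 229 (99.6%) were among the 390, 58.7% of them. Of all 436 loci, 89.45% rose in cytoplasm total RNA. Of the loci tested, 59.81% rose on chromatin and 71.88% in polyA RNA. Much of the overlap is therefore given by these high shares alone. In all 3 data sets 170 loci rose, 84 rose in cytoplasm total RNA alone by these tests, and 36 were called higher in none. Loci that could not be tested, 8 on chromatin and 116 in polyA RNA, count here as not rising. Across loci the log2 changes in cytoplasm and chromatin had Pearson r = 0.538 and Spearman rho = 0.543 (428 loci), and those in total and polyA RNA of the cytoplasm r = 0.763 and rho = 0.809 (320 loci). These describe loci of the same cell groups, which are not independent replicates, and the counts and values in polyA RNA hold the 152 loci that passed the filter only through treated libraries.

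Other sets of transcripts give a scale for these counts, without a test of the difference between sets. The rest of the assembled loci, on the cytoplasm side of the rule, had 732 of 997 rising in cytoplasm total RNA with a median of 2.49. Of the 997, 50 passed the filter there only through treated libraries. Over the other 947, 682 rose, with a median of 2.37. On chromatin 379 of 577 tested rose, but 140 of these 577 passed the filter only through treated libraries; over the other 437 the median was 0.99, and over the 417 chromatin-side loci that passed without those libraries 0.60. The remaining sets took features on the chromatin side by the same rule. How many of their features passed the filter only through treated libraries was not counted. Annotated lncRNAs at least as high on chromatin had 1515 of 3195 tested rising in the cytoplasm, with a median of 0.50, and 667 of 4575 rising on chromatin, with a median of 0.07. Genes named as divergent transcripts (symbols ending in -DT, read away from a neighbour's promoter) and higher on chromatin, a class the exosome is known to degrade, had 237 of 280 rising in the cytoplasm with a median of 1.40 and 87 of 286 on chromatin with 0.20. Protein-coding genes on the chromatin side had 781 of 7117 rising and 901 falling in the cytoplasm.

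For the machinery that acts on such RNA the calls in cytoplasm total RNA were few in number and small in size. Of 12 exosome subunit genes in cytoplasm total RNA, auxin in DIS3-AID cells raised EXOSC6 (0.26) and lowered EXOSC1 (-0.18), both parts of the catalytically inactive core, where 21.1% of all features rose and 13.2% fell. Of 14 genes for nuclear cofactors, ZFC3H1, a component of the PAXT adaptor, rose there (0.21), while RBM7 of the NEXT adaptor (-0.17), the polyA polymerase gene TENT4B (-0.17) and SRRT, a partner of the cap-binding complex (-0.14), fell. Against control cells, the response in the cytoplasm was larger for EXOSC6 (0.22) and for none of the other 11 subunit genes, and none of the 14 cofactor genes was called. On chromatin none of the 12 subunit genes was called by edgeR with auxin in DIS3-AID cells, and among the 14 cofactor genes SRRT fell (-0.17). Against control cells, the response there was larger for EXOSC6 (0.32), TENT4A (0.28) and ZCCHC7 (0.47) and smaller for SRRT (-0.24). Of all features 8.54% were larger and 9.2% smaller. With auxin in control cells, EXOSC6 (-0.35), ZCCHC7 (-0.27) and MPHOSPH6 (-0.20) fell on chromatin and DIS3L (0.23) rose, where 9.02% of all features rose and 7.97% fell. The larger responses of EXOSC6 and ZCCHC7 thus go with a fall in control cells, and neither gene was called in DIS3-AID cells. In polyA RNA ZFC3H1 rose with auxin in DIS3-AID cells (0.59), and by more than in control cells (0.68). No other tested gene of these lists was called in those polyA comparisons.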

How the data were processed

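The deposited values were read counts per feature, whole numbers made by the authors from libraries that are stranded per the labels' protocols; STAR 2.7.3a, Cufflinks 2.2.1, featureCounts 2.0.0 and hg38 are named in the submitters' processing notes, without parameters or roles. The loci and lists were chosen with earlier results of these data known. Levels are counts over the library total. Each data set of 12 libraries was fitted over all features by edgeR 4.0.16 in R 4.3.3 (robust quasi-likelihood F test) after TMM scaling and removal of low counts (filterByExpr, minimum 10). Calls are at a Benjamini-Hochberg adjusted p below 0.05; 24966 features entered on chromatin. Fractions were compared in joint fits. Alternatives were DESeq2 1.42.0, other scaling, no filter, a replicate block, other rules for the loci and leaving out each library. Loci were named by a fixed rule: the 2 largest changes each way among called loci whose libraries do not overlap, the 2 largest and 2 smallest chromatin minus cytoplasm differences, the 2 most abundant and the neighbours of the rule's edge. XLOC_009001 was named outside this rule, for its gain on chromatin, after its values were seen. Replicate chi-square values per degree of freedom were 2.61 to 40.9, so no libraries were duplicates. Deviations of same-numbered libraries correlated above 0.1 in every pair for auxin in control cytoplasm (0.239 to 0.44), auxin in control polyA RNA (0.201 to 0.282) and polyA minus total RNA (0.281 to 0.531) only. A reference genome was not used for the loci, whose coordinates the files do not pair with the locus numbers.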

Additional observations from a re-analysis of the deposited data

Results flagged for a closer look

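What stood out were differences between groups that passed the test of the difference itself. In cytoplasm total RNA the auxin effect was larger in DIS3-AID than in control cells for 373 loci, against 16.1% of all features (edgeR). On chromatin it was larger for 172 and smaller for 9, against 8.54% and 9.2%. In polyA RNA it was larger for 95 and smaller for 1, against 4.85% and 0.985%. The tests in total RNA use libraries that chose the loci. Of the 95 loci in polyA RNA, 51 passed the filter on low counts without the treated clone's libraries. By locus the auxin effect in DIS3-AID minus control cells was 5.62 for XLOC_013740 and 5.03 for XLOC_013581 in the cytoplasm, on the log2 scale. It was 2.07 for XLOC_011098 and 2.19 for XLOC_002374 on chromatin. Both cytoplasm loci passed the filter on low counts only through the treated clone's libraries.

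Between fractions the response was lower on chromatin than in the cytoplasm for 344 loci and higher for 14, against 11% and 22.1% of all features. The difference was -4.65 for XLOC_002282, -4.17 for XLOC_013740, 1.40 for XLOC_013536 and 1.03 for XLOC_009752. XLOC_002282 and XLOC_013740 passed the filter in the cytoplasm only through the treated clone's libraries. Between polyA and total RNA of the cytoplasm the response was lower in polyA RNA for 68 loci and higher for 15, against 3% and 5.29%.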

How the results depend on the processing

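Of the main counts under alternatives, 257 stayed within 1.5 times and 28 did not; of the values for named loci and for calls in the other direction, 380 held, 57 moved and 8 lost the call. Most others came from choosing fewer loci. With the 233 loci at least 2 times as high on chromatin, rising loci with auxin in DIS3-AID cells numbered 199 in the cytoplasm, 135 on chromatin and 121 in polyA RNA; larger responses than in control cells 184, 93 and 56; loci higher in the untreated clone 73 and 55 in cytoplasm and chromatin; loci rising in control chromatin 33; loci lower on chromatin in the treated clone 130; loci with a lower response on chromatin 166 and in polyA RNA 35. With the 291 loci chosen by TMM-scaled levels, the counts were 255 (cytoplasm), 169 (chromatin), 240 (larger response in cytoplasm), 185, 219 and 41 (the last 3 in the order above). With the loci that pass the filter in groups other than the treated clone, chosen after seeing the data, 85 rose in polyA RNA and 51 had a larger response there than in control cells. For auxin in control cytoplasm, 6 loci rose with no filter, 2 with DESeq2, 1 with loci chosen in control libraries with auxin and 0 to 1 when 1 library was left out (1 without treated library 3). On control chromatin, 25 to 47 loci rose when 1 library was left out. With library sizes alone, 89.1% in place of 61.5% of all features called in cytoplasm with auxin in DIS3-AID cells were higher.

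With the replicate number as a block, 396 loci rose in the cytoplasm, 246 on chromatin and 228 in polyA RNA with auxin in DIS3-AID cells; besides the calls given with the results, the block changed the count of loci that fell in the cytoplasm from 1 to 2 and moved no other count by over 1.5 times. No alternative turned the direction of a named locus. Depth limits the polyA set, where 116 loci could not be tested, and the loci below 0.1 CPM.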
